A study of Homo sapiens with 4 samples.

Results

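The genes described here are 10 smooth muscle contractile genes, ACTA2, TAGLN, CNN1, MYL9, MYH11, TPM1, TPM2, CALD1, ACTG2 and DES. They were chosen by gene symbol among the 58365 rows of the deposited expression table, and each symbol had 1 row. RNA-seq was performed on the established human embryonic stem cell (hESC) line H1 during hematopoietic differentiation. All cells received activinA (40 ng/ml) and BMP4 (50 ng/ml) for 2 days, then VEGF (40 ng/ml) and bFGF (50 ng/ml) for 3 days, then VEGF and bFGF for 3 more days, and were collected at day 8. In the last step, the 2 SB libraries came from cells given SB431542, an inhibitor of the TGFβ type I receptor, and the 2 DMSO libraries from cells without the inhibitor. The study describes a sort for CD31+ cells before sequencing, which the sample labels do not mention. The model is 1 cell line, and the labels do not say whether libraries of a group came from separate cultures, so p-values measure only the spread between these libraries.

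Smooth muscle cells contract when myosin filaments pull on actin filaments, and TGFβ is known to induce many of the genes that build this apparatus. Serum response factor (SRF), with its coactivators of the myocardin family, drives these genes by binding the CArG box in their promoters. In differentiating hESC cultures the same genes are found in mural and mesenchymal cells, and several of them are also used by endothelial cells. The comparison asks how their RNA levels differed when TGFβ signaling was blocked while blood cells emerged from endothelium.

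Expression was given as FPKM, a fragment count normalised to transcript length and to the size of the library. The low values of single-transcript genes step by what 1 fragment is worth, and these steps gave depths of about 24200000 and 23400000 fragments for the DMSO libraries and 19700000 and 26000000 for the SB libraries. The endothelial marker PECAM1, which encodes CD31, had 197 and 163 FPKM in the DMSO libraries and 182 and 153 FPKM in the SB libraries. The pan-leukocyte gene PTPRC stayed below 0.202 FPKM in all 4 libraries, but not all blood genes were low. SPN, another blood marker, had between 31.6 and 66.8 FPKM. Libraries with the same replicate number resembled each other in some respects: mitochondrial genes held 5.88% and 6.64% of the summed FPKM in the replicates numbered 1 but 9.92% and 10.2% in those numbered 2. Values within each number are therefore shown for the contractile genes.

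To show the regulatory sequence in front of these genes, the 250 bases before the annotated start are printed for the members with the lowest unadjusted p-values or the highest level, and for ACTG2 as the member with full CArG boxes. RefSeq promoter windows (GRCh38.p14) were at hand for 6 of the 10 genes, ACTA2, CNN1, TPM1, TPM2, CALD1 and ACTG2, with 11 windows in all. Capitals mark a CArG box, a CArG-like box (a CArG box with 1 G or C in its A/T core) or an MCAT motif (CATTCC on either strand), and positions are counted backwards from the start site.
ACTA2, downstream start, chr10:88952774-88953023, minus strand: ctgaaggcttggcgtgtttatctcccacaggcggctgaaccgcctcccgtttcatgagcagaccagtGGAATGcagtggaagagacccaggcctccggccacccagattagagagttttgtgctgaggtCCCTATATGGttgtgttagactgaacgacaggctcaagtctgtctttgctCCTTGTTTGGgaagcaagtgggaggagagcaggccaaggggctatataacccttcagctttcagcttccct
CNN1, chr19:11538601-11538850, plus strand: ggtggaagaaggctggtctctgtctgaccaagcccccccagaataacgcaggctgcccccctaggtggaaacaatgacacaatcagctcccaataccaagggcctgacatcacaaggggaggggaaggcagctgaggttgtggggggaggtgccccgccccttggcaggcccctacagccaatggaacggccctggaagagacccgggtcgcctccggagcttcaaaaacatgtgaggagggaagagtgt
TPM1, chr15:63048239-63048488, plus strand: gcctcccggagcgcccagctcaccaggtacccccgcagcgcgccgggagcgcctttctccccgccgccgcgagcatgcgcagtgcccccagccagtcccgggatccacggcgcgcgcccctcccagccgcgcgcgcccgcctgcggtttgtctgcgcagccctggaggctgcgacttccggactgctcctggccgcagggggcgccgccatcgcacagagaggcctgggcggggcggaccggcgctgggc
TPM2, chr9:35689926-35690175, minus strand: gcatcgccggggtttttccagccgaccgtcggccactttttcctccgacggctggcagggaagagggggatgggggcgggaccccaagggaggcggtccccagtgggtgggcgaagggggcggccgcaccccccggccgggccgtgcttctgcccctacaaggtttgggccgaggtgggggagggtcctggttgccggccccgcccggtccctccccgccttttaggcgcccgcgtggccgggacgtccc
ACTG2, chr2:73892758-73893007, plus strand: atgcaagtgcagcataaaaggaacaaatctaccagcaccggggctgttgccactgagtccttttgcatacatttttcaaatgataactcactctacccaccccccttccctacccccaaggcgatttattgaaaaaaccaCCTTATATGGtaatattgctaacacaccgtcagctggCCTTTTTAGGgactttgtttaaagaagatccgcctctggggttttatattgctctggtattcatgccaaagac

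The downstream ACTA2 window held 2 CArG-like boxes, at -121 and -71, and 1 MCAT motif at -183, whereas the window of the upstream ACTA2 start held none of these motifs. Both full CArG boxes among the 11 windows lay in ACTG2, at -110 and -73. No capital letter appears in the CNN1, TPM1 and TPM2 windows, which says only that these letters are not in these windows. Of the 4 CALD1 windows, 1 held a CArG-like box, and its start lies outside the CALD1 locus of the expression table. An MCAT motif was found in 2 other CALD1 windows, whose starts lie within it. Over 35116 RefSeq windows of the same length, 1.16% held a CArG box, 5.96% a CArG-like box and 11.9% an MCAT motif. The short SMAD motif CAGAC, searched on both strands, was found in 38.0% of all windows and in 1 or more windows of ACTA2, CNN1, TPM1 and CALD1. The FPKM values are per gene and do not show which start was used.

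Levels of the contractile genes ranged from near 0 to above 100 FPKM. In the DMSO libraries the order from the highest mean was TPM2, CALD1, TPM1, ACTA2, MYL9, TAGLN and CNN1, and no neighbours in this order overlapped between libraries. In the SB libraries the order was the same, but TPM1 and ACTA2 overlapped. DES, ACTG2 and MYH11 did not exceed 0.894 FPKM in any library, so these 3 genes were scarcely detected in either group. Another marker of contractile smooth muscle, SMTN (smoothelin), named after its values were seen, had 132 and 113 FPKM in the DMSO libraries and 205 and 153 FPKM in the SB libraries (difference 0.54, adjusted p = 0.516 by limma). For the 7 of the 10 genes with a mean of at least 1 FPKM in at least 1 group, both SB libraries lay below both DMSO libraries. The same order was found for 2392 (16.0%) of all 14909 genes at that level. The plot of FPKM by library shows the contractile genes.

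**Figure D1:**
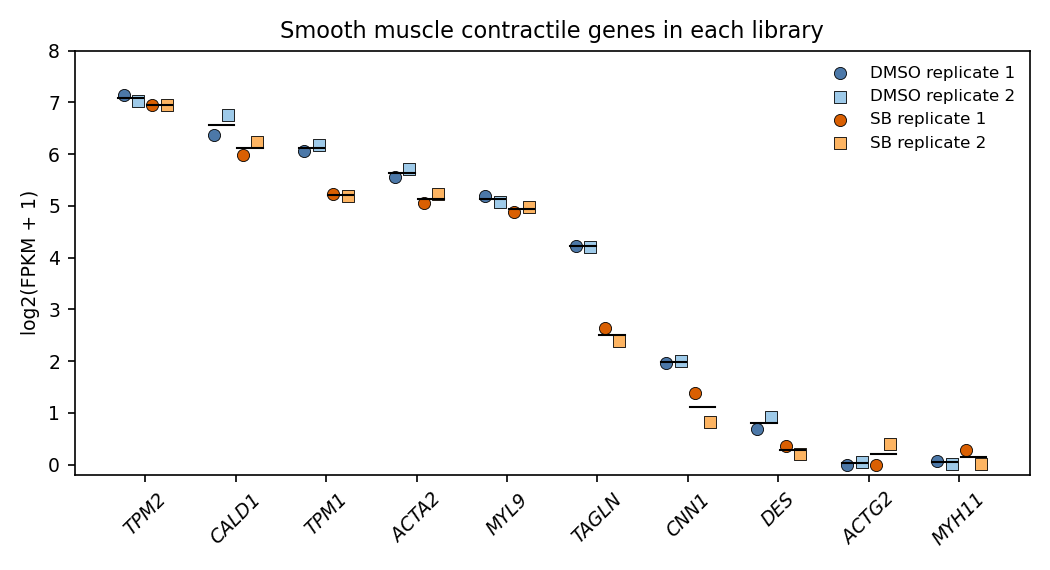
Levels of the 10 smooth muscle contractile genes in each library, as log2(FPKM + 1) on a linear axis, ordered by mean level. Points are single libraries (n = 2 per group) and short lines are group means. The SB libraries of TAGLN (5.23 and 4.22 FPKM) stand clear of its DMSO libraries (17.8 and 17.4 FPKM), while those of TPM2 lie close together.

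TAGLN encodes transgelin (SM22α), an actin-binding protein that is among the earliest markers of smooth muscle differentiation (chr11:117199321-117204782, GRCh38, plus strand). TAGLN had 17.8 and 17.4 FPKM in the DMSO libraries and 5.23 and 4.22 FPKM in the SB libraries. Both SB libraries were far below both DMSO libraries, and replicates of a group lay close together. The mean of 4.73 ± 0.711 FPKM (SD, n = 2) in SB-treated cells was 3.72-fold below the 17.6 ± 0.302 FPKM (SD, n = 2) in DMSO-treated cells. On the log2(FPKM + 1) scale the difference was -1.70 (SE 0.18, 95% interval -2.16 to -1.24), with an unadjusted p of 0.000248 and an adjusted p of 0.0798 (limma, Benjamini-Hochberg over all 14909 genes tested). TAGLN was thus the contractile gene with the largest difference, but it did not pass the threshold of 0.05. It stood 84th among all tested genes when these were ordered from the most negative difference. Its exons overlap those of PCSK7 on the other strand, and PCSK7 had 33.3 and 19.7 FPKM in the DMSO libraries and 29.2 and 19.5 FPKM in the SB libraries. Whether counting used the strand is not stated, so reads of this overlap cannot be told apart.

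ACTA2 encodes smooth muscle α-actin, the thin filament actin of vascular smooth muscle and of myofibroblasts (chr10:88935074-88991339, GRCh38, minus strand). ACTA2 had 46.0 and 51.8 FPKM in the DMSO libraries and 32.4 and 36.4 FPKM in the SB libraries. The groups did not overlap, and the gap between them was larger than the gaps between replicates. The difference was -0.49 on the log2(FPKM + 1) scale (SE 0.17, 95% interval -0.94 to -0.05, adjusted p = 0.450 by limma), or 1.42-fold in mean FPKM. Within the replicate numbers the differences were almost equal, at -0.49 and -0.50. ACTA2 is the gene with the downstream start printed above with 2 CArG-like boxes. The ACTA2 locus overlaps exons of FAS, which encodes a death receptor and had between 2.83 and 4.57 FPKM, on the other strand.

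ACTG2 encodes the γ-actin of visceral smooth muscle (chr2:73892314-73919865, GRCh38, plus strand). ACTG2 was listed at 0 in replicate 1 of each group and had 0.0378 FPKM in DMSO replicate 2 and 0.312 FPKM in SB replicate 2. At the depth of these libraries, 0.312 FPKM corresponds to between 5.22 and 14.4 fragments, depending on the transcript counted. The gene with 2 full CArG boxes near its start was therefore at the limit of detection in both groups, and it was not tested.

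Tropomyosins lie along the actin filament and govern the access of myosin to it. TPM1 (chr15:63042632-63071915, GRCh38, plus strand) had 66.1 and 71.7 FPKM in the DMSO libraries and 36.8 and 35.5 FPKM in the SB libraries. The groups were well apart, and the SB libraries were nearly equal. The difference was -0.91 on the log2(FPKM + 1) scale (SE 0.16, 95% interval -1.32 to -0.50, unadjusted p = 0.00240, adjusted p = 0.170 by limma), and the mean FPKM was 1.91-fold lower with SB. TPM2, which encodes β-tropomyosin (chr9:35681992-35691020, GRCh38, minus strand), was the most abundant contractile gene, with 141 and 129 FPKM in the DMSO libraries and 123 and 122 FPKM in the SB libraries. Its groups were also apart, but by less than the gap between the DMSO libraries. The TPM2 difference was -0.14 (SE 0.15, 95% interval -0.54 to 0.26, adjusted p = 0.883 by limma), which leaves room for a moderate difference either way. The difference between TPM1 and TPM2 was not tested. TPM1 has 34 annotated transcripts, which gene-level FPKM do not separate.

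CALD1 encodes caldesmon, which binds actin and tropomyosin and restrains the myosin ATPase (chr7:134744252-134970728, GRCh38, plus strand). CALD1 had 81.7 and 107 FPKM in the DMSO libraries and 62.7 and 74.1 FPKM in the SB libraries. The lower DMSO library was only slightly above the higher SB library. The difference was -0.45 on the log2(FPKM + 1) scale (SE 0.21, 95% interval -1.0 to 0.09, adjusted p = 0.607 by limma). DMSO replicate 2 carried much of it, since the difference without that library was -0.26 and without DMSO replicate 1 it was -0.65. CALD1 is expressed outside smooth muscle as a shorter isoform, and gene-level FPKM do not separate the isoforms.

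CNN1 encodes calponin 1, a regulator of actomyosin that marks differentiated smooth muscle (chr19:11538717-11550323, GRCh38, plus strand). CNN1 was low, with 2.90 and 3.02 FPKM in the DMSO libraries and 1.62 and 0.770 FPKM in the SB libraries. Both SB libraries were below both DMSO libraries, and SB replicate 2 was well below SB replicate 1. These levels correspond to between 88.0 and 111 fragments per DMSO library and between 24.9 and 49.8 fragments per SB library. The difference was -0.88 (SE 0.26, 95% interval -1.56 to -0.19, unadjusted p = 0.0220, adjusted p = 0.383 by limma), and the mean FPKM was 2.48-fold lower with SB. The pseudocount of 1 compresses the difference of such a low gene, which was -1.32 with a pseudocount of 0.1.

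MYL9 encodes the regulatory light chain of smooth muscle myosin, whose phosphorylation starts contraction (chr20:36541484-36551447, GRCh38, plus strand). MYL9 had 35.4 and 32.6 FPKM in the DMSO libraries and 28.5 and 30.6 FPKM in the SB libraries. The groups did not overlap but were close. The difference was -0.20 (SE 0.16, 95% interval -0.61 to 0.22, adjusted p = 0.808 by limma). MYH11 encodes the smooth muscle myosin heavy chain, the most specific marker of mature smooth muscle (chr16:15703172-15857033, GRCh38, minus strand). MYH11 had 0.0520 and 0.00741 FPKM in the DMSO libraries and 0.220 and 0.0122 FPKM in the SB libraries. The replicates numbered 1 were the higher ones in both groups, and the groups overlapped. Even the highest of these values corresponds to at most 28.5 fragments over a transcript of several kilobases. The exons of MYH11 overlap those of NDE1 on the other strand, which had between 14.3 and 21.7 FPKM, and MYH11 was not tested.

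DES encodes desmin, the intermediate filament protein of muscle cells (chr2:219418377-219426739, GRCh38, plus strand). DES had 0.606 and 0.894 FPKM in the DMSO libraries and 0.285 and 0.157 FPKM in the SB libraries. The SB libraries were both below the DMSO libraries, at about 11 and 8 fragments against 29 and 41.1. DES did not reach a mean of 1 FPKM in a group and was not tested.

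Of the 10 contractile genes, 7 reached the level needed for testing, and 0 of these had an adjusted p under 0.05 (limma), while 4 had an unadjusted p under 0.05, TAGLN, TPM1, CNN1 and ACTA2, each with a lower level in the SB libraries. Among all 14909 genes tested, 20 (0.134%) had an adjusted p under 0.05, and 16 (0.107%) did so with a lower level in SB-treated cells. An unadjusted p under 0.05 with a lower level was found for 769 genes (5.16%), and both SB libraries were below both DMSO libraries for 2392 genes (16.0%), against 7 of the 7 contractile genes tested. The 7 genes share 4 libraries and are not independent of each other. Their median difference was -0.49 on the log2(FPKM + 1) scale, beside 0.04 over all genes tested. The limma counts above come from a fit that leaves the replicate numbers out. With the numbers as a block, 4 of the 7 contractile genes had an adjusted p under 0.05 (limma). The same fit called 1564 of all 14909 genes tested. In these bulk libraries, fewer cells of a type and less RNA per cell cannot be told apart. An exact permutation test on a single gene could not reach a two-sided p below 0.333 with these group sizes. The plot of differences gives the values within each replicate number, which are negative for any gene whose groups do not overlap.

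**Figure D2:**
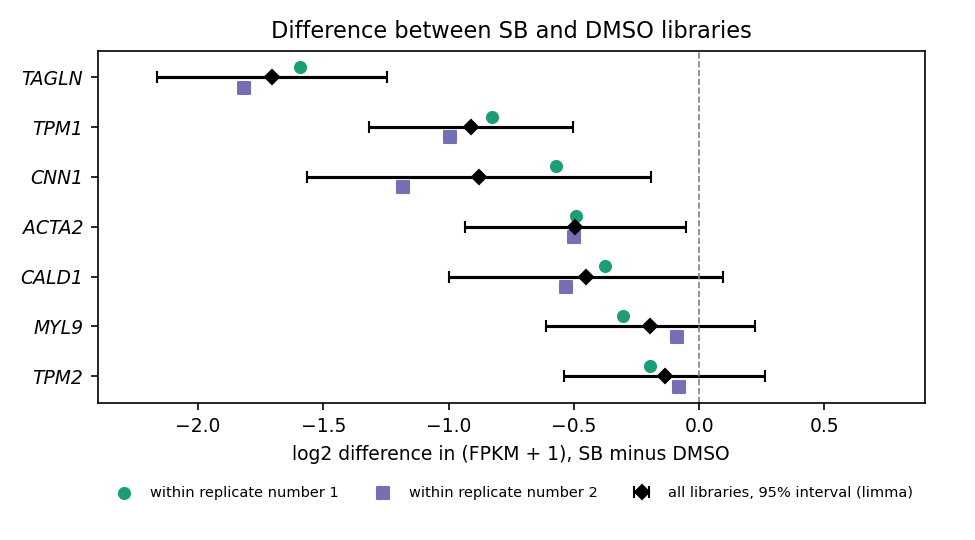
Difference between SB and DMSO libraries for the 7 contractile genes tested, on the log2(FPKM + 1) scale. Diamonds with bars are the limma estimate over 4 libraries with its 95% interval, circles and squares are the differences within replicate numbers 1 and 2, and the dashed line marks no difference. TAGLN lies furthest left at -1.70, and the intervals of CALD1, MYL9 and TPM2 cross 0.

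Most contractile proteins have non-muscle relatives that cells use for shape and movement, so 6 of the contractile genes were also set against their own families. TAGLN held 8.47% and 8.50% of the summed FPKM of the 3 transgelin genes in the DMSO libraries and 2.00% and 1.67% in the SB libraries. TPM1 held 8.49% and 8.91% of the 4 tropomyosin genes in the DMSO libraries and 4.19% and 3.92% in the SB libraries. ACTA2 was a small part of the 6 actin genes, with 1.45% and 1.76% in the DMSO libraries and 0.787% and 0.939% in the SB libraries.

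In each of these families the share of the contractile gene was lower in both SB libraries, and the replicates were close together. CNN1 held 1.89% and 1.85% of the 3 calponin genes in the DMSO libraries and 0.908% and 0.465% in the SB libraries. TPM2 held 18.1% and 16.0% of the tropomyosin genes in the DMSO libraries and 14% and 13.5% in the SB libraries. MYL9 held 11.4% and 8.92% of 3 regulatory light chain genes in the DMSO libraries and 8.68% and 8.10% in the SB libraries, so that its groups were barely apart. These shares are ratios within a library and do not depend on its scaling, but they move with the other genes in the sum. A lower share was not particular to the contractile genes. ACTG1 had a mean share of 51.1% in the DMSO and 44.5% in the SB libraries, and MYL12B 33.6% and 27.0%. The groups did not overlap for either gene. ACTB, TPM3, MYL12A and TAGLN2 held higher shares in both SB libraries, and TPM4, CNN2 and CNN3 overlapped. Transcripts of ACTA2 shared 0 stretches of 50 bases with those of the other actins, and the same held for TPM1 and TPM2 against the other tropomyosins.

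**Figure D3:**
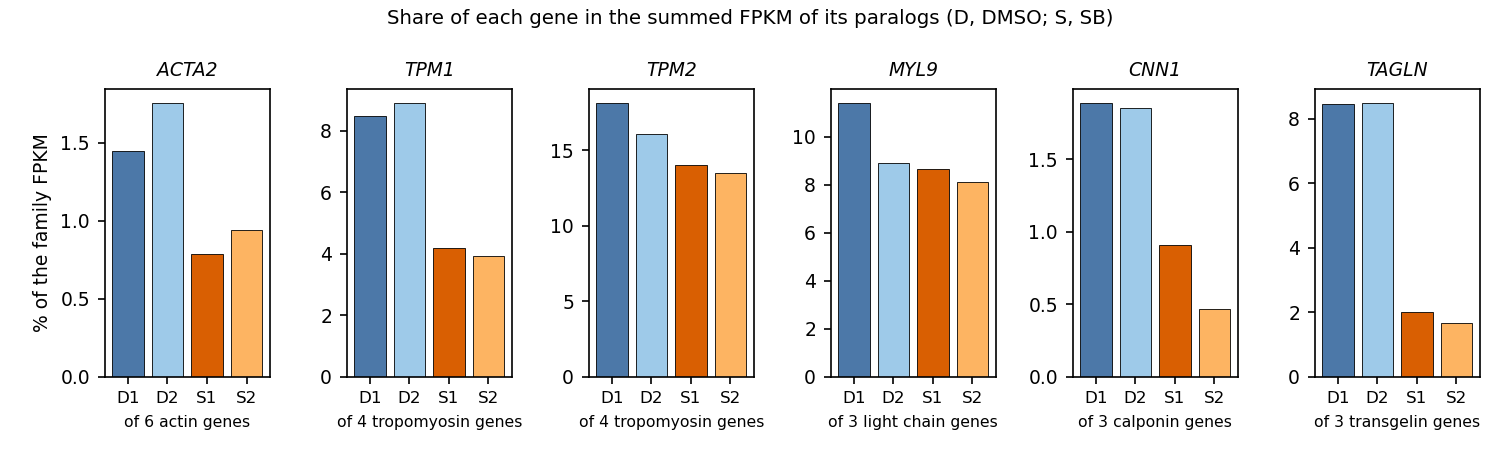
Share of 6 contractile genes in the summed FPKM of their gene family, as a percentage, in each library. Each bar is 1 library (D1 and D2, DMSO replicates 1 and 2; S1 and S2, SB replicates 1 and 2), every axis starts at 0, and the scales differ between panels. The TAGLN share is 8.47% and 8.50% in the DMSO libraries and 2.00% and 1.67% in the SB libraries.

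The non-muscle paralogs ranged from 0.573 FPKM to 2184 FPKM over the libraries. ACTB, the cytoplasmic β-actin, had 1439 and 1433 FPKM in the DMSO libraries and 2184 and 2179 FPKM in the SB libraries, a difference of 0.60 on the log2(FPKM + 1) scale (SE 0.14, adjusted p = 0.270 by limma). TAGLN2 had a difference of 0.41 and the intermediate filament gene VIM one of -0.53, with adjusted p of 0.472 and 0.488 by limma. ACTG1, MYH9 and MYH10, the other cytoplasmic actin and 2 non-muscle myosin heavy chains, had differences of 0.19, 0.35 and -0.10. Of the 14 non-muscle paralogs, 2 had an unadjusted p under 0.05 and a higher level in SB-treated cells, 1 had a lower level, and 0 passed the adjusted threshold. Their median difference was 0.26.

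The striated muscle relatives were mixed in level and direction, and 1 of them was called. ACTC1, the cardiac α-actin, which is also made early in smooth muscle, fell from 9.62 and 11.9 FPKM in the DMSO libraries to 0.519 and 0.677 FPKM in the SB libraries. Its difference of -2.87 (SE 0.20, adjusted p = 0.0365 by limma) was larger than that of any contractile gene tested, and its mean was 18.0-fold lower. Of the 14 genes of this list, 5 were tested, 3 of them had an unadjusted p under 0.05 and a lower level in SB-treated cells, and the median difference of the 5 was -0.95. TNNC1 (cardiac troponin C) and MYL7 (atrial light chain) were the other two, with differences of -0.95 and -1.09 and adjusted p of 0.275 and 0.294 by limma. MYL4 and TNNI3, named after their values were seen, lay the other way, with both SB libraries above both DMSO libraries. MYL4, an embryonic and atrial light chain, was the most abundant of the list, with 61.5 and 79.5 FPKM in the DMSO libraries and 91.8 and 111 FPKM in the SB libraries (difference 0.52, adjusted p = 0.520 by limma). TNNI3, cardiac troponin I, had 3.35 and 2.56 FPKM in the DMSO libraries and 3.45 and 5.38 FPKM in the SB libraries (difference 0.44, adjusted p = 0.719 by limma).

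Light chain phosphorylation is set by kinases and phosphatases that respond to calcium and RhoA. MYLK, the kinase that phosphorylates MYL9, had 12.4 and 13.1 FPKM in the DMSO libraries and 27.1 and 35.4 FPKM in the SB libraries. Both SB libraries were above both DMSO libraries, the opposite order to that of the contractile genes tested. The MYLK difference was 1.22 (SE 0.20, unadjusted p = 0.00178, adjusted p = 0.151 by limma). RHOB, a small GTPase related to RhoA, had 223 and 155 FPKM in the DMSO libraries and 97.7 and 72.1 FPKM in the SB libraries, with a difference of -1.14 and an adjusted p of 0.270 by limma. All 12 genes of this list were tested, 0 passed the adjusted threshold, and the median difference was 0.07.

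Among 25 structural partners of the contractile apparatus, 19 were tested, 3 had an unadjusted p under 0.05 with a higher level in SB-treated cells, 1 with a lower level, and 0 passed the adjusted threshold. PDLIM3, which binds α-actinin, had 6.93 and 7.54 FPKM in the DMSO libraries and 1.99 and 2.03 FPKM in the SB libraries, with a difference of -1.45 and an adjusted p of 0.0948 by limma. ITGA8, an integrin of smooth muscle and mesenchyme, had 4.17 and 5.25 FPKM in the DMSO libraries and 9.23 and 10.7 FPKM in the SB libraries, with a difference of 0.94 and an adjusted p of 0.223 by limma. SVIL, which encodes the actin- and myosin-binding supervillin, had 31.2 and 77.0 FPKM in the DMSO libraries and 218 and 142 FPKM in the SB libraries. The SVIL libraries varied widely, and its difference of 1.82 had an SE of 0.48 and an adjusted p of 0.319 by limma. The median over the structural partners was 0.07.

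Of SRF and its coactivators at the CArG box, SRF, MRTFA and MRTFB overlapped between the groups, and MYOCD, at a much lower level, did not. SRF had 20.1 and 15.7 FPKM in the DMSO libraries and 22.4 and 17.9 FPKM in the SB libraries. Its difference was 0.17 (SE 0.21, 95% interval -0.39 to 0.72, adjusted p = 0.903 by limma). MRTFA and MRTFB, the SRF coactivators that sense free actin and that the table lists as MKL1 and MKL2, had differences of 0.29 (95% interval -0.52 to 1.10) and -0.26 (95% interval -0.91 to 0.40), with overlapping groups.

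MYOCD, which encodes myocardin, the coactivator most specific to smooth and cardiac muscle, had 0.146 and 0.0936 FPKM in the DMSO libraries and 0.0253 and 0.0186 FPKM in the SB libraries. Both SB libraries were below both DMSO libraries, and the gene was too low to be tested. PRRX1, a mesenchymal homeobox gene, had 1.37 and 1.32 FPKM in the DMSO libraries and 0.221 and 0.307 FPKM in the SB libraries, with a difference of -0.89 and an adjusted p of 0.301 by limma. Of the 15 regulators, 13 were tested, PRRX1 was the 1 gene with an unadjusted p under 0.05, 0 passed the adjusted threshold, and the median difference was -0.16.

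**Figure D4:**
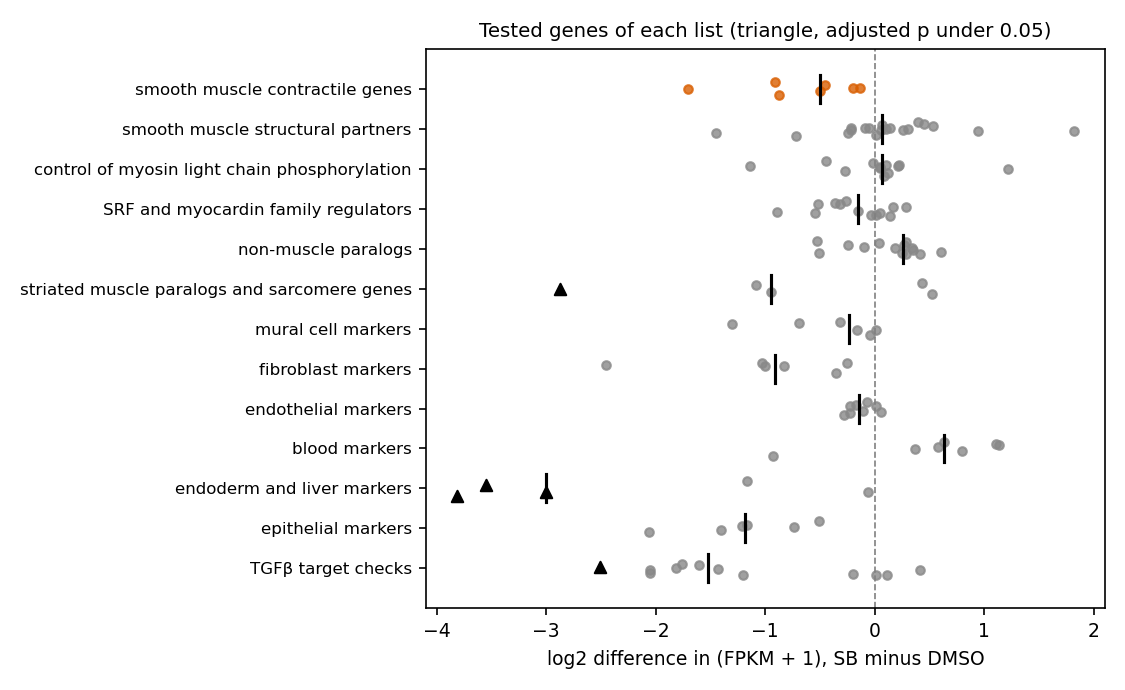
Differences between SB and DMSO libraries on the log2(FPKM + 1) scale for the tested genes of each list. Each point is a gene, spread vertically only to separate points, vertical bars are list medians, and triangles are genes with a limma adjusted p under 0.05. The contractile genes lie left of 0 with a median of -0.49, while the structural partners and the light chain phosphorylation genes have medians of 0.07.

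As a check of the treatment, 12 genes of the TGFβ pathway and its targets were examined, of which 7 had an unadjusted p under 0.05 with a lower level in SB-treated cells and 0 with a higher level. TGFBI, a matrix protein induced by TGFβ, fell from 29.7 and 31.0 FPKM in the DMSO libraries to 4.10 and 4.93 FPKM in the SB libraries (difference -2.51, adjusted p = 0.0365 by limma). It was the 1 gene of this list past the adjusted threshold, and the median over the list was -1.52.

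Markers of other cell types also differed between the groups, and their part in the contractile gene values was not tested. Mural cells, the contractile cells of vessel walls, were represented by 9 markers, of which 6 were tested and 1 had an unadjusted p under 0.05 with a lower level in SB-treated cells. Of the 6 tested, 3 overlapped between the groups, MCAM, NOTCH3 and ANPEP. MCAM had 50.6 and 52.9 FPKM in the DMSO libraries and 49.3 and 51.1 FPKM in the SB libraries. The summed level of all 9 markers was 309 and 375 FPKM in the DMSO libraries and 183 and 189 FPKM in the SB libraries. This gap rests mainly on 1 gene. RGS5, a pericyte gene, gave the largest part of this sum, with 169 and 271 FPKM in the DMSO libraries and 75.7 and 97.5 FPKM in the SB libraries (difference -1.31, SE 0.29, adjusted p = 0.251 by limma). PDGFRB, the receptor that recruits mural cells, had 5.06 and 4.29 FPKM in the DMSO libraries and 4.15 and 4.0 FPKM in the SB libraries (difference -0.16, 95% interval -0.62 to 0.31). HIGD1B was listed at 0 in all libraries but SB replicate 2.

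Of 8 fibroblast markers, 6 were tested and 4 had an unadjusted p under 0.05 with a lower level in SB-treated cells. COL1A1, the main fibrillar collagen chain, had 107 and 78.5 FPKM in the DMSO libraries and 17.1 and 14.8 FPKM in the SB libraries (difference -2.46, adjusted p = 0.0646 by limma). COL1A2, another collagen chain, had 112 and 123 FPKM in the DMSO libraries and 87.2 and 96.5 FPKM in the SB libraries (difference -0.35, adjusted p = 0.607 by limma). The fibroblast markers summed to 716 and 569 FPKM in the DMSO libraries and 475 and 381 FPKM in the SB libraries. THY1 gave the largest part of this sum and overlapped between the groups. It had 367 and 257 FPKM in the DMSO libraries and 310 and 214 FPKM in the SB libraries (difference -0.25, adjusted p = 0.878 by limma). DCN and POSTN, which mark mature fibroblasts, did not exceed 0.577 FPKM. Endothelial markers, 8 of 8 tested and 0 with an unadjusted p under 0.05, summed to 1509 and 1331 FPKM in the DMSO libraries and 1354 and 1226 FPKM in the SB libraries.

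Marker RNAs of cell types outside the mesenchyme were examined as well. The 6 endoderm and liver markers summed to 209 and 188 FPKM in the DMSO libraries and 62.2 and 29.8 FPKM in the SB libraries. Of the 5 tested, 3 fell with an adjusted p under 0.05 (limma), AFP, TTR and APOA1. SOX17, which the paper describes as keeping cells endothelial, gave the largest part of the sum in both SB libraries. It had 53.3 and 17.5 FPKM in the DMSO libraries and 49.3 and 17.3 FPKM in the SB libraries (difference -0.06, adjusted p = 0.992 by limma). Its groups overlapped. All 6 epithelial markers had an unadjusted p under 0.05 with a lower level, and their sums were 255 and 251 FPKM against 116 and 124 FPKM. The 8 blood markers, 7 of them tested, summed to 336 and 294 FPKM in the DMSO libraries and 527 and 452 FPKM in the SB libraries, and 4 had an unadjusted p under 0.05 with a higher level and 1 with a lower level.

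The 5 genes whose profile over the 4 libraries was nearest to the median profile of the 7 contractile genes tested were sought among 7467 other genes with a mean of at least 10 FPKM. They were F2RL2 (a thrombin receptor), KRT18 (a keratin), CFLAR (an inhibitor of caspase activation), DDB2 (a DNA repair gene) and HEG1 (an endothelial membrane protein), with Euclidean distances between 0.0606 and 0.0972 on the centred log2(FPKM + 1) scale. F2RL2, the nearest, had 140 and 173 FPKM in the DMSO libraries and 102 and 116 FPKM in the SB libraries. The contractile genes themselves lay between 0.0898 (ACTA2) and 1.22 (TAGLN) from the median profile. All of them but ACTA2 lay further from it than these 5 genes, with CALD1 next at 0.145. The 5 genes are thus near the profile of ACTA2 rather than near each contractile gene. A likeness over 4 libraries is a description only.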

How the data were processed

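RNA-seq libraries of TruSeq type were made from total RNA of 2 DMSO-treated and 2 SB-treated samples of H1 hESCs, grouped by their titles. The authors deposited FPKM values in 58365 rows, 1 column per library. The submitters' processing notes name BWA, Bowtie, RSEM and hg19 without versions, but the loci in the table match GRCh38: 95.5% of 58229 identifiers had the same version in GENCODE release 29, and 99.8% of these the same position. Coordinates are counted from 1. Strand use in counting was not given in the sources used here. Depth was estimated from the steps of low FPKM, on which 93.2% to 94.4% of the genes checked fell within 0.05 of a whole fragment.

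Values were transformed to log2(FPKM + 1), which understates the change of low genes. Rows with a mean of at least 1 FPKM in at least 1 group were tested with limma 3.58.1 in R 4.3.3 (empirical Bayes with trend, group as the only term, two-sided, Benjamini-Hochberg threshold 0.05), after a check on simulated data. Because the table holds FPKM, the count tests foreseen for counts were not run. The study names Student's t test in general and no test for single genes of its RNA-seq. The genes, lists and tests were chosen with earlier results of these data known. Named genes are the 10 contractile genes, up to 3 genes per list by smallest unadjusted p, a list of regulators, paralogs and markers, and the 5 genes of nearest profile. SMTN, MYL4, TNNI3, DCN, POSTN, HIGD1B, FAS, NDE1 and PCSK7 were named after their values were seen. MYL12A, MYL12B, TPM3, TPM4, CNN2, CNN3, MCAM, ANPEP, COL1A2, THY1 and SOX17 were also named in this way. Sequences are RefSeq windows; TAGLN, MYL9, MYH11 and DES had none.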

Additional observations from a re-analysis of the deposited data

How the results depend on the processing

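The contractile genes tested had a negative difference under every alternative run. Their lack of overlap fixes this sign where a library is left out or the pseudocount is changed. The replicate block, the other filters and the fit without trend cannot change the estimate of a gene that is kept. Only quantile normalization, upper-quartile scaling and rescaling without mitochondrial and 7SL genes could have changed the sign. TAGLN ranged from -1.88 to -1.58 on the log2 scale, TPM1 from -0.97 to -0.85, CNN1 from -1.32 to -0.60, ACTA2 from -0.58 to -0.41, CALD1 from -0.65 to -0.26, MYL9 from -0.25 to -0.14 and TPM2 from -0.20 to -0.07. CNN1 dropped out when 2 libraries had to reach 5 FPKM. The median over them was -0.54 under quantile normalization (-0.542), upper-quartile scaling (-0.537) and rescaling without mitochondrial and 7SL genes (-0.537), and -0.65 to -0.41 when a library was left out. The count of contractile genes past the adjusted threshold stayed at 0, leaving out a library included, except with the replicate block.

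With the replicate block, limma called 4 of the 7 contractile genes tested, ACTA2, TAGLN, TPM1 and CALD1 (adjusted p = 0.0237, 0.00594, 0.00968 and 0.0307). Over all 14909 genes tested it called 1564, of which 820 were higher and 744 lower with SB. The labels give the replicate numbers but no shared culture or day, and with 2 pairs the deviations of same-numbered libraries correlated at 0.528 across genes, a value that is equal for both numbers by construction. Only that equality is fixed by construction, so same-numbered libraries did share part of their spread across genes. Because the labels name no pairing, the main fit leaves the numbers out. Its count of contractile genes past the adjusted threshold depends on that choice. Whether the numbers mark a pairing or a batch was not tested. The cause of the larger count was not tested.

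The 20 genes called over the whole table became 31 under quantile normalization and 0 without a filter (2739 genes with an unadjusted p under 0.05, limma). Leaving out a library gave 0 to 14 calls: 0 without DMSO replicate 1 (1168 with an unadjusted p under 0.05), 10 without SB replicate 1 and 9 without SB replicate 2. There the lone library was assumed to vary like the other group. Summing rows of a symbol changed nothing, since each contractile gene had 1 row. Depth limits MYH11, ACTG2 and DES, which rest on at most 41.1 fragments per library.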
